A study of Arabidopsis thaliana with 6 samples.

Results

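Expansins are secreted proteins that loosen plant cell walls without cutting the wall polymers, and they act at the acid pH that plasma membrane proton pumps create in the wall. Alpha-expansins (EXPA) and beta-expansins (EXPB) form the main subfamilies, and rapid cell elongation, as in the hypocotyl of a seedling growing in the dark, needs such loosening. PIF1 belongs to the basic helix-loop-helix factors, accumulates in darkness and is degraded in light.

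This account covers 10 expansin genes, EXPA1 (AT1G69530), EXPA2 (AT5G05290), EXPA3 (AT2G37640), EXPA4 (AT2G39700), EXPA5 (AT3G29030), EXPA8 (AT2G40610), EXPA10 (AT1G26770), EXPA11 (AT1G20190), EXPB1 (AT2G20750) and EXPB3 (AT4G28250), of 27444 protein-coding nuclear genes of Arabidopsis thaliana. They were taken by locus code as a selection from the family, and each was given the PIF1-Myc peaks whose summit (start plus summit offset minus 1) was in the gene or no more than 3000 bp from it. All 10 codes carried an expansin name in the gene table, where EXPA3 stands as EXP3. Chromatin was immunoprecipitated with an antibody against the Myc tag from 3-day-old, dark-grown, whole transgenic seedlings that overexpress Myc-tagged PIF1 (3 libraries) and from wild-type seedlings without the tag (3 libraries). Seeds of both had 3 h of white light before darkness at 21 °C. Each library pooled the DNA of 4 immunoprecipitations from 2 biological replicates. The labels name no promoter for the tagged PIF1 and do not say how many transgenic lines were used or whether these seedlings keep their own PIF1. Whole seedlings were used, so the cell types behind a peak cannot be told apart.

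The 3 peak lists, each of 1 PIF1-Myc library against the equally numbered wild-type library, held 4578, 12776 and 7678 peaks for lists 1, 2 and 3. The PIF1-Myc libraries held 14209334, 5825479 and 5721184 tags after removal of excess duplicates, and the wild-type libraries 17323572, 6134032 and 7435352. List 2 stood apart from the others by its length and by its median fold enrichment of 5.29, against 2.71 and 3.87 in lists 1 and 3. Redundant tags made up 13%, 70% and 66% in PIF1-Myc libraries 1, 2 and 3 and 24%, 61% and 15% in the wild-type ones. The fold enrichment of a peak, the authors' value, is the ratio of PIF1-Myc tags to the local wild-type background, and its score is 10 times the negative log10 of the caller's p. Fold enrichments are set side by side below as values of single peaks, and a peak's strength is given as its percentile by fold enrichment within its own list.

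Each of the 10 expansin genes had at least 1 PIF1-Myc peak, as had 73.3% of all protein-coding genes. All 10 had one in list 2, against 59.5% of all genes. Peaks in at least 2 lists were found at 40.5% of all genes and in all 3 lists at 13.6%. Among the 10, EXPB1 alone had peaks in all 3 lists. EXPA1, EXPA3, EXPA4, EXPA8 and EXPB3 had peaks in 2 lists, and EXPA2, EXPA5, EXPA10 and EXPA11 had peaks in list 2 only. There were 32 peaks in all, 3 from list 1, 23 from list 2 and 6 from list 3. The strongest in list 2 were those at EXPB1 (14.26-fold), EXPA8 (12.72-fold) and EXPB3 (11.76-fold).

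**Figure D1:**
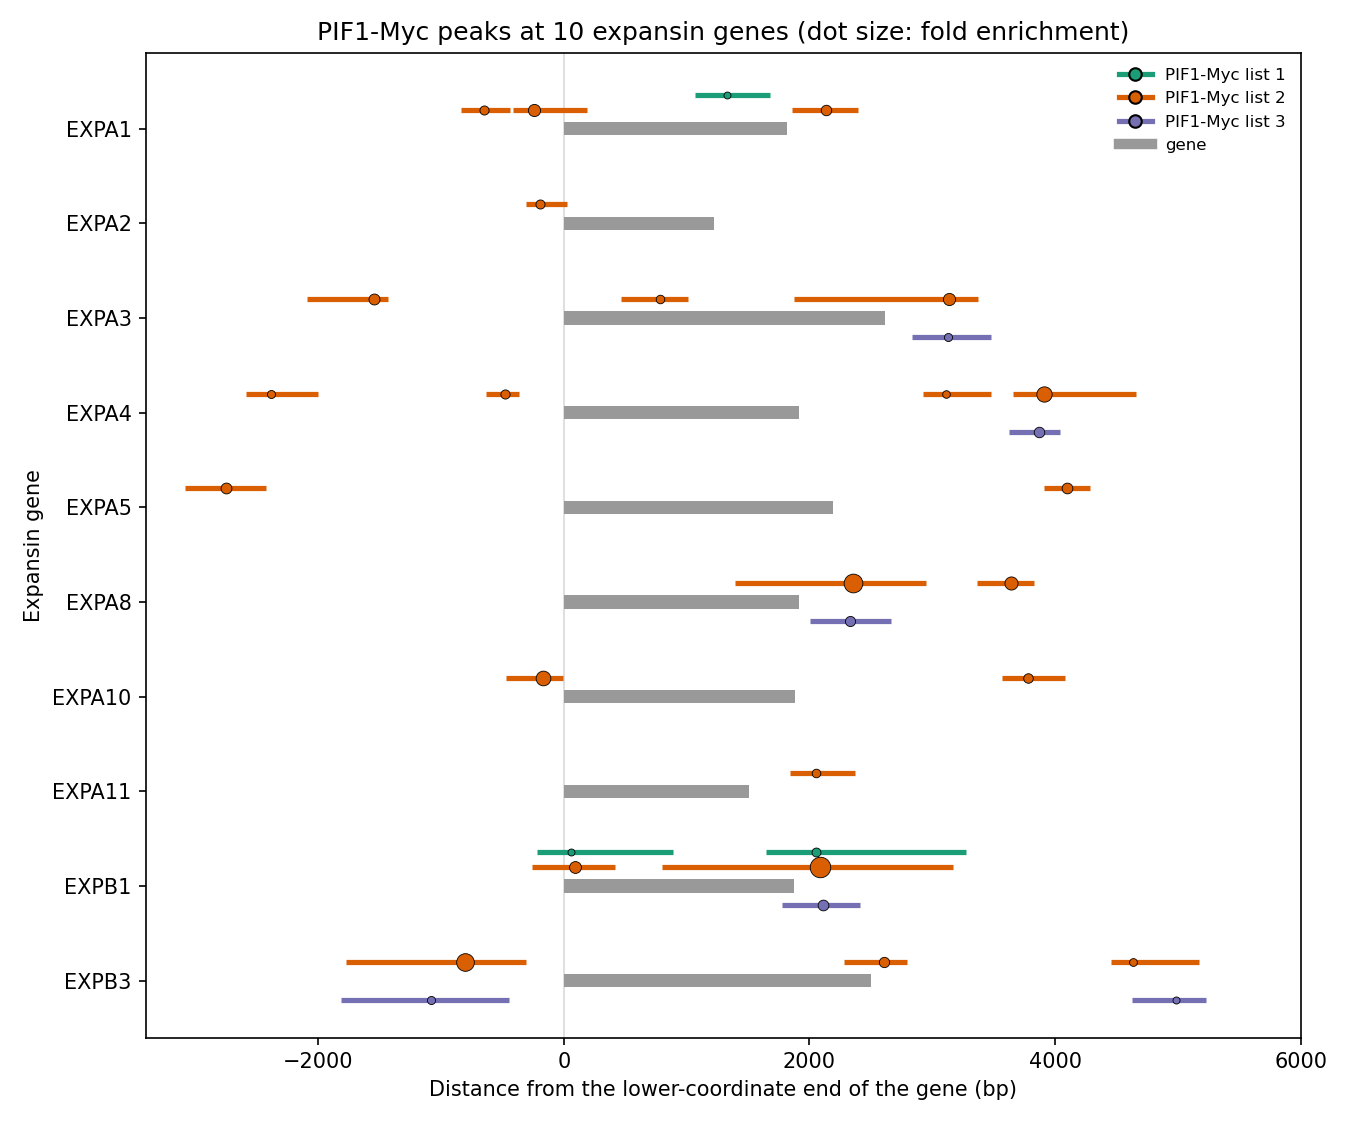
Peaks at each of the 10 expansin genes. The horizontal axis is the distance in bp from the lower-coordinate end of the gene (grey bar), coloured lines are peaks of PIF1-Myc lists 1, 2 and 3, and dots mark summits, with a size that grows with fold enrichment. List 2 gave 23 of the 32 peaks, and at EXPB1 peaks of all 3 lists lie over the higher-coordinate end.

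EXPB1 (AT2G20750), a beta-expansin gene, carried the peaks found most often. Beside its higher-coordinate end, list 1 held a peak of 4.15-fold with 494 tags, list 2 a peak of 14.26-fold with 626 tags and list 3 a peak of 5.72-fold with 113 tags. The 3 summits lay 182, 213 and 237 bp outside the gene, at positions 8942888, 8942919 and 8942943 of chromosome 2 (TAIR10). All 3 values were above their list's median, at percentiles of 85.5, 94.9 and 84.2 (mean 88.2 ± 5.83, SD, n = 3 lists). The FDR given by the authors' peak caller was 1.83% in list 2, but 100% in list 1 and 77.93% in list 3. A second pair of EXPB1 peaks had its summits inside the gene at the other end, with 2.47-fold (243 tags) in list 1 and 6.69-fold (115 tags) in list 2, and list 3 had none there. Peaks overlapping by at least 1 bp joined all 5 peaks into 1 site of 3537 bp at chromosome 2, 8940573 to 8944109.

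The outer EXPB1 summits lay inside the neighbouring gene AT2G20760, which begins 43 bp beyond EXPB1, so that gene shares the same peaks and is nearer to them. By the distance between percentiles of the strongest peak in the 3 lists, the genes most like EXPB1 among 3733 genes with peaks in all 3 lists were AT2G20760 and GCL2, both through these very peaks, and AT5G16210 at a distance of 1.79 percentile points.

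EXPA8 (AT2G40610), an alpha-expansin gene, had its summits beyond the higher-coordinate end, 441 bp away in list 2 (12.72-fold, 332 tags) and 419 bp away in list 3 (5.23-fold, 94 tags). These stood at percentiles of 93.5 and 80.1 and formed a site at chromosome 2, 16950188 to 16951739. The list 2 peak reached 518 bp into the gene, and EXPA8 was the nearest protein-coding gene to both summits. A further list 2 peak lay 1728 bp away (7.83-fold, 132 tags), with no counterpart in lists 1 and 3. List 1 held no peak in the window of EXPA8.

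EXPB3 (AT4G28250), the other beta-expansin gene, had a broad site at chromosome 4, 13997810 to 13999319, on its lower-coordinate side. List 2 gave 11.76-fold with 602 tags and a score of 1576.54, the highest score of the 32 peaks, with an FDR of 1%. List 3 gave 3.46-fold with 267 tags, at a percentile of 34.5 against 92.1 in list 2. The summits lay 806 bp from EXPB3 in list 2 and 1081 bp in list 3, and AT4G28240 was nearer, 215 bp away in list 2 and around the summit in list 3. On the other side, list 2 had 5.38-fold at 106 bp, and a weak site at 14004077 to 14004851 had 3.17-fold in list 2 and 2.53-fold in list 3, at percentiles of 2.2 and 3.8. This weak site lay 2138 and 2484 bp from EXPB3 and closer to AT4G28260.

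EXPA3 (AT2G37640) and EXPA4 (AT2G39700) each had a site of lists 2 and 3. At EXPA3 the site at chromosome 2, 15789400 to 15790997, had summits 520 bp (list 2, 7-fold, 274 tags) and 509 bp (list 3, 3.42-fold, 73 tags) beyond the higher-coordinate end. Its percentiles were 73.5 and 33.3, so it was above the list median in list 2 alone, where the FDR was 4.68%. At EXPA4 the site at chromosome 2, 16547460 to 16548491, lay 1992 bp (list 2, 9.74-fold, 137 tags) and 1957 bp (list 3, 5.55-fold, 50 tags) away. These were at percentiles of 87.6 and 82.8, high in both lists, and EXPA4 was the nearest protein-coding gene. The FDR of this EXPA4 peak in list 2 was 18.2%, and in list 3 neither site had an FDR of 5% or less. EXPA3 had 2 more list 2 peaks (5.92-fold at 1541 bp and 3.85-fold inside the gene). EXPA4 had 3 more list 2 peaks of 3.02- to 4.35-fold.

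EXPA1 (AT1G69530), an alpha-expansin gene known from guard cells, had peaks in 2 lists that did not coincide. List 1 held 1 peak inside the gene (2.44-fold, 109 tags, percentile 33.8). List 2 held peaks 241 bp (7-fold, 86 tags) and 648 bp (4.31-fold, 46 tags) from the lower-coordinate end and 325 bp (5.54-fold, 87 tags) from the other end. No base of the list 1 peak was shared with a list 2 peak, so EXPA1 had no site held by 2 lists.

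The remaining 4 genes rested on list 2 alone, and none of their peaks had an FDR of 5% or less. EXPA10, whose level is known to affect leaf growth, had a 9.2-fold peak with 76 tags 168 bp away (percentile 85.8) and a 4.7-fold peak 1895 bp away. EXPA5, known from brassinosteroid-regulated growth, had 5.81-fold at 2751 bp, inside the neighbouring MYB110, and 5.71-fold at 1910 bp. EXPA2, known from germinating seeds, had a single peak of 4.3-fold with 49 tags 190 bp away (percentile 24.6). EXPA11 had a single peak of 3.88-fold with 90 tags 549 bp away (percentile 13.5). The EXPA2 and EXPA11 peaks were thus among the weaker peaks of their list. The EXPA5 peak at 2751 bp was the last inside the 3000 bp limit, and the nearest outside it were those of EXPA3 at 3112 bp (list 3, 3.21-fold) and 3202 bp (list 2, 10.74-fold).

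**Figure D2:**
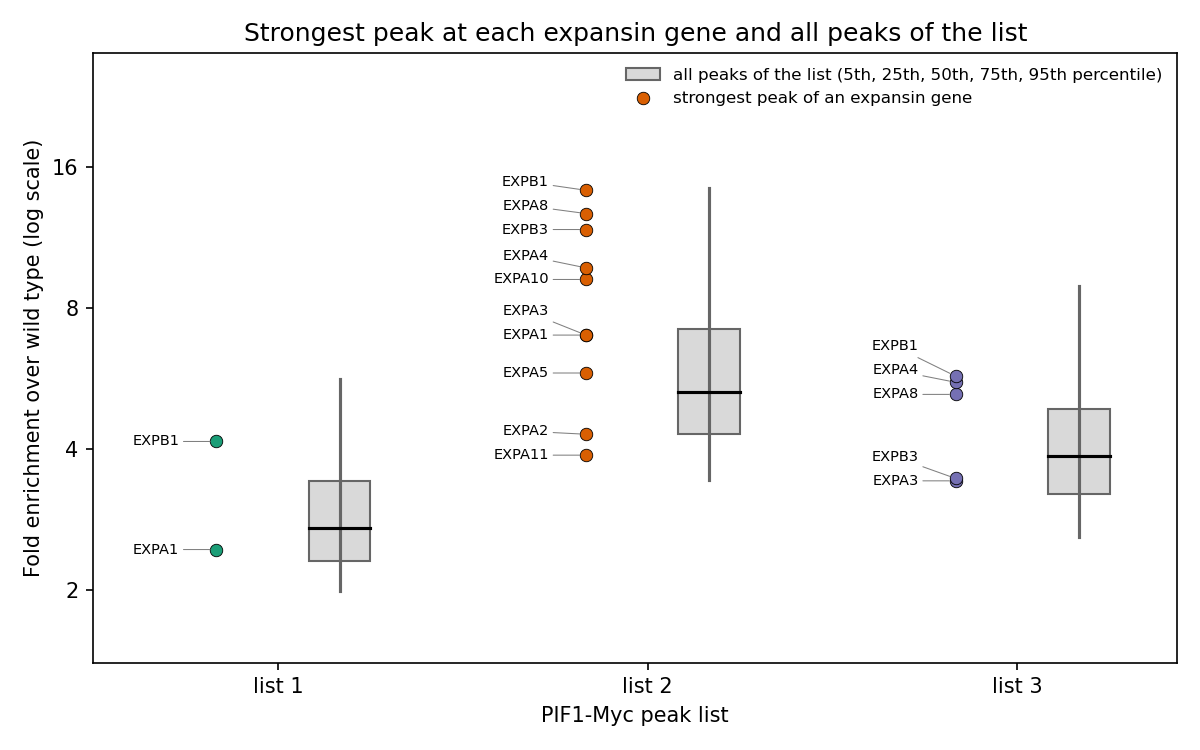
Fold enrichment over wild type (log scale) of the strongest peak of each expansin gene in each PIF1-Myc list (dots), beside all peaks of that list (box from the 25th to the 75th percentile with the median, line from the 5th to the 95th). In list 2 the dots run from 3.88 at EXPA11 to 14.26 at EXPB1, and lists 1 and 3 hold 2 and 5 of the 10 genes.

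At most of these sites the summits of different lists lay close together. The strongest peaks of lists 2 and 3 lay 11 bp apart at EXPA3, 22 bp at EXPA8 and 35 bp at EXPA4, against a median of 41 bp (quartiles 18 and 99) over the 4126 sites that lists 2 and 3 share. At EXPB1 the 3 summits spanned 55 bp, against a median of 48 bp over 1390 sites of all 3 lists. The EXPB3 sites were wider apart, with 275 and 346 bp.

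The counts were set beside those of all protein-coding genes. In list 1, 2 of the 10 expansin genes had a peak summit inside or within 3000 bp, against 26.3% of all genes. In list 2 all 10 had one, against 59.5%, and in list 3 it was 5, against 41.6%. At least 1 list gave a peak to 10 of 10, against 73.3%, at least 2 lists to 6 of 10, against 40.5%, and all 3 lists to 1 of 10, against 13.6%. Without list 2, 6 of the 10 had any peak, against 52.5% of all genes, and 1 (EXPB1) had peaks in both other lists, against 15.4%. Without list 3, all 10 had any peak, against 66.4%, and 2 (EXPA1 and EXPB1) had peaks in both other lists, against 19.4%. Without list 1, all 10 had any peak, against 68.2%, and 5 had peaks in both other lists, against 32.8%. A site of overlapping peaks from at least 2 lists lay at 5 of 10, against 30.5%. The expansin genes thus stood above all genes in list 2 and near them in lists 1 and 3. The same held for the number of peaks per gene, with means of 0.3, 2.3 and 0.6 in lists 1, 2 and 3 at the expansin genes and 0.31, 0.975 and 0.563 over all genes. No set test was made, since the genes were picked with results of these data known.

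The strongest list 2 peak per gene also stood higher at the expansin genes. It was taken there from more peaks per gene, a mean of 2.3 against 0.975 over all genes. The latter mean includes the genes without a list 2 peak. Peak for peak the difference was small, with a median of 5.71-fold for the 23 list 2 peaks and 5.29-fold for the whole list. The strongest list 2 peak reached 5-fold at 8 of 10 expansin genes, against 39.7% of all genes. It reached 10-fold at 3 of 10 (EXPA8, EXPB1 and EXPB3), against 9.91%. A list 2 peak with an FDR of 5% or less lay at 4 of 10 (EXPA3, EXPA8, EXPB1 and EXPB3), against 9.37%. Neighbouring genes were nearer to the EXPB1 and EXPB3 peaks in both counts, which the shares of all genes also allow. Among genes with a list 2 peak, the strongest was at a median of 8.1-fold for the expansin genes and 5.87-fold for all. In list 3 it was 5.23-fold for the 5 expansin genes and 4.03-fold for all. None of the 9 expansin peaks of lists 1 and 3 had an FDR of 5% or less, a level that 0 and 5 peaks of the whole lists reached.

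Most of the peaks lay outside the genes. Of the 32, 4 had their summit inside the expansin gene, 10 on the lower- and 18 on the higher-coordinate side, and for 21 the expansin gene was the nearest protein-coding gene. The gene table holds no strand, so the side of the transcription start was not analysed here. The expansin genes had more room around them than genes in general. Of the 6000 bp flanking a gene, a median of 3358 bp lay before the first neighbouring protein-coding gene at the expansin genes (1638 bp at EXPA11 to 6000 bp at EXPA10), against 1834 bp over all genes. The median gene length was 1898.5 bp, against 2078 bp. The part of this space in the peak counts was not tested.

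Peaks were also counted at the other 25 listed expansin and expansin-like genes. List 1 gave a peak to 3 of 25, list 2 to 14, list 3 to 9, at least 2 lists to 5 and all 3 lists to 2, which were shares of 12%, 56%, 36%, 20% and 8%, against 26.3%, 59.5%, 41.6%, 40.5% and 13.6% of all genes. The strongest peak per list is given for each gene named here, and peaks of different lists need not coincide. EXPA6 had peaks in all 3 lists, with strongest values of 3.52-, 9.13- and 4.3-fold in lists 1, 2 and 3, as had EXPA12 with 3.04-, 6.96- and 4.02-fold. The list 1 peak of EXPA6, 2605 bp away, had its summit inside a neighbouring gene. So had these EXPA12 peaks, 2919, 942 and 932 bp away in lists 1, 2 and 3. EXPA9 and EXPA13 had peaks in lists 2 and 3 (7.04- and 4.73-fold, and 7.93- and 5.56-fold), and EXPA15 in lists 1 and 2 (2.89- and 4.08-fold). A neighbouring gene was nearer to these EXPA13 peaks than EXPA13, which was 1735 and 1716 bp away. None of the 25 reached 10-fold in list 2, against 9.91% of all genes. A list 2 peak with an FDR of 5% or less lay at 1 of them (EXPA9), against 9.37%. EXPA7 and EXPA18, known from root hairs, had list 2 peaks only (3.09- and 7.05-fold), and neighbouring genes were nearer to both. EXPA17, EXPA20, EXPA22, EXPA23, EXPA26 and EXPB2 had no peak in any list. How reads with several matches were mapped is not given in the sources used here, so values in the cluster of like genes from EXPA21 to EXPA26 are uncertain. The 25 genes had less free flank than the 10 (median 2489 bp, against 3358 bp) but more than all genes (1834 bp). Its part in their peak counts was not tested.

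**Figure D3:**
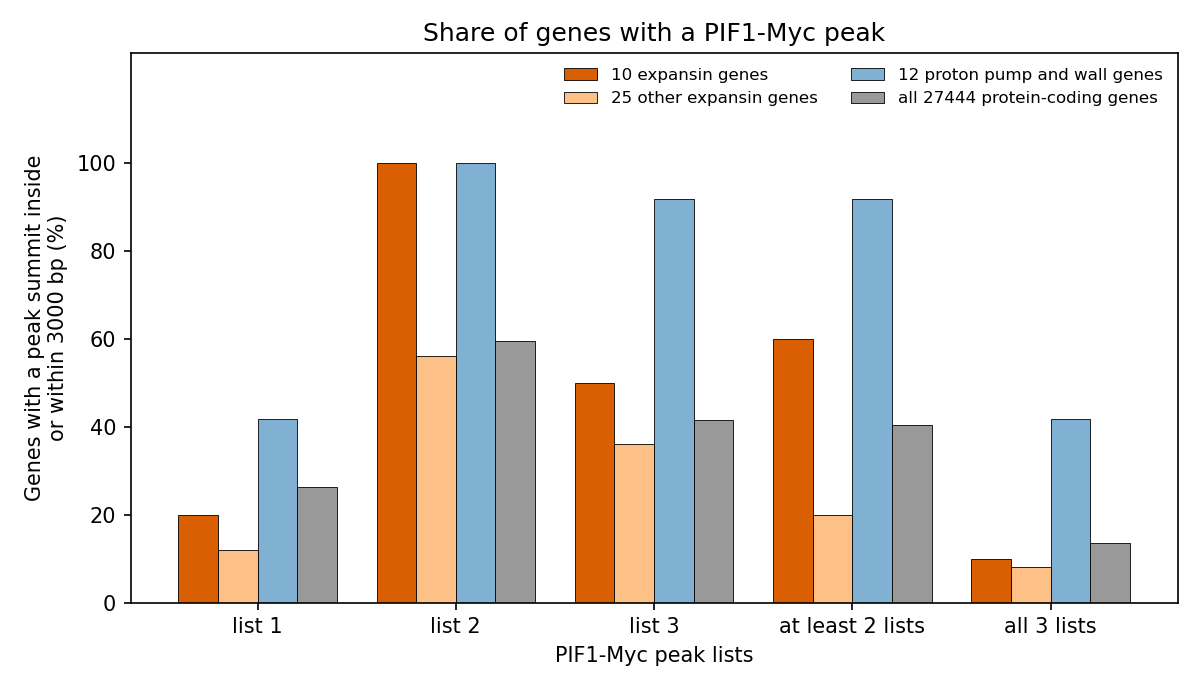
Percentage of genes with a peak summit inside or within 3000 bp, by PIF1-Myc list and by number of lists, for the 10 expansin genes, 25 other expansin genes, 12 proton pump and wall genes and all 27444 protein-coding nuclear genes. In list 2 the 10 expansin genes stand at 100%, against 59.5% of all genes, and in list 1 at 20%, against 26.3%.

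Genes that act with expansins were described in the same way, as 12 genes for proton pumps, cellulose and xyloglucan synthesis and wall sensing, again with the strongest peak per list. List 1 gave a peak to 5 of 12 (26.3% of all genes), list 2 to all 12 (59.5%) and list 3 to 11 (41.6%). At least 2 lists gave one to 11 (40.5%) and all 3 lists to 5 (13.6%). These genes are long (median 4396.5 bp), so their windows are wider. Their median free flank was 3264 bp, against 1834 bp over all genes. The part of length and flank in the counts was not tested. The plasma membrane proton pump gene AHA1 (HA1 in the table) had peaks in all 3 lists, with strongest values of 3.15-, 17.93- and 4.21-fold, as had AHA2 (HA2) with 3.38-, 10.72- and 5.34-fold and AHA3 (HA3) with 4.76-, 5.11- and 2.88-fold. Neighbouring genes were nearer to the AHA1 values of lists 1 and 3, 2796 and 2801 bp away, and to the AHA2 value of list 2, 1966 bp away. The wall sensor gene THE1 had 6.56-, 29.34- and 6.35-fold, the strongest of the 12 genes in lists 1 and 2, at summits 2320 to 2333 bp away, and its relative FER had 5.27- and 3.27-fold in lists 2 and 3. Of cellulose synthase genes, CESA1 had 2.87-, 11.77- and 4.22-fold in lists 1, 2 and 3, CESA3 (CEV1) 10.4- and 7.33-fold in lists 2 and 3, and CESA6 11.09- and 4.05-fold. A neighbouring gene was nearer to both these CESA3 peaks, whose summits lay 481 and 480 bp from CESA3. COB, which orients cellulose deposition, had 4.78- and 3.83-fold in lists 2 and 3. The xyloglucan xylosyltransferase genes XXT1 (XT1) and XXT2 (XT2) had 8.69- and 3.62-fold, and 3.87- and 3.95-fold. KOR1 (GH9A1), for an endoglucanase of cellulose synthesis, had a peak in list 2 only (13.55-fold).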

How the data were processed

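Reads were processed with Bowtie 0.12.7, CASAVA 1.8.0 and MACS 1.4.1 on TAIR10, per the submitters' processing notes. Per the file headers, peaks were called for each PIF1-Myc library against 1 wild-type library, not on pooled samples, with a p cutoff of 1e-05, and the smaller data set was scaled towards the larger. The deposited tag count is that of the PIF1-Myc library. The deposited score is 10 times the negative log10 of p, the fold enrichment is a ratio to local wild-type background, and the FDR is a percent from swapping PIF1-Myc and wild type, by the authors' peak caller. No wild-type counts per peak were used here, so nothing was tested beyond the authors' p.

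Distances used a gene table of assembly TAIR10.1, not named as the peaks' build, so its coordinates are not given. All 47 listed genes matched by locus code. The code (Python 3.11.15, pandas 2.3.3) was tested on simulated peaks. All 10 genes are named, those of the other 2 lists with peaks in at least 2 lists too; EXPA7, EXPA18, KOR1, MYB110 and genes without a peak were named after their values were seen. The members and lists were chosen with earlier results of these data known. Sequences and the planned motif search were not analysed here. Nothing says whether the 3 libraries share seedlings, so their spread may be partly technical.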

Additional observations from a re-analysis of the deposited data

How the results depend on the processing

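No paired analysis was possible because the results come from no test between the PIF1-Myc and wild-type libraries. Without replicate 2 the count of expansin genes with a peak in at least 2 lists was 1 (EXPB1) and without replicate 3 it was 2 (EXPA1 and EXPB1), against 6 with all lists, and leaving out 1 list gave 1 to 5. Both remaining lists are then needed, a stricter rule under which the count cannot rise. The share of all genes fell too, from 40.5% to 32.8%, 15.4% and 19.4% without replicates 1, 2 and 3. Genes with any peak numbered 6 to 10 and peaks 9 to 29 when 1 list was left out, the lowest both without replicate 2. With 1 list left out no count over 3 lists can be made. Peaks numbered 20 with a window of 1000 bp, 21 when given to the nearest protein-coding gene only, 17 at a fold enrichment of at least 5 and 16 at a score of at least 100, against 32. Genes with peaks in at least 2 lists numbered 3 at a fold enrichment of at least 5. Genes with peaks in all 3 lists numbered 2 with a window of 5000 bp (EXPA10 and EXPB1) and 0 both by nearest gene and at a fold enrichment of at least 5, against 1. The other counts of genes, peaks and sites stayed within 1.5 times, among them 4 to 8 genes with peaks in at least 2 lists over windows of 1000 to 5000 bp and 5 sites, against 6, when summits had to lie within 150 bp. Under that rule both EXPB3 sites were lost. The 5 sites lay at EXPA3, EXPA4, EXPA8 and EXPB1, with the ends of EXPB1 counted as separate sites. No share of all genes was worked out for the changed windows, the nearest gene, the score or the 150 bp rule. At a fold enrichment of at least 5 it was worked out for list 2 alone. The counts under these rules thus describe the 10 genes only. For single genes, the number of lists with a peak moved further at 5 of 10 genes at a fold enrichment of at least 5, at 5 at a score of at least 100, at 3 and 2 with windows of 1000 and 5000 bp, and at 1 by nearest gene. It moved at 1, 9 and 4 genes without replicates 1, 2 and 3. That follows from the rule, since leaving out a list lowers the number at every gene with a peak in it. Only EXPB1, from 3 to 2, stayed within 1.5 times. The causes were not tested, nor was the part of depth, which ran from 5721184 to 14209334 PIF1-Myc tags.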

Other observations

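Beyond the limit of 3000 bp, EXPA10 had a site of all 3 lists, chosen here after its values were seen. Its summits lay 4082, 4272 and 4080 bp from EXPA10 in lists 1, 2 and 3, with fold enrichments of 3.32, 9.01 and 7.9 and percentiles of 72.6, 85.1 and 93.3. The nearest protein-coding gene was AT1G26773, 813 to 1005 bp away. In list 3 this peak was stronger than any inside the windows of the 10 expansin genes, the highest of which was 5.72-fold at EXPB1. EXPA3 likewise had a site of lists 2 and 3 outside its window (10.74- and 3.21-fold), nearer to AS1 at 841 and 931 bp. In all, 10 peaks lay 3000 to 5000 bp from an expansin gene.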
